A study of Mus musculus with 12 samples.

Results

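The 10 genes described here mark resident macrophages of the mouse or encode the complement protein C1q: C1qa, C1qb, C1qc, Itgam, Csf1r, Adgre1, Mrc1, Cd68, Cx3cr1 and Cd163. They were picked by symbol from the deposited table of all genes, where they hold 11 of the 50600 gene IDs, because Itgam is listed under 2 IDs. All 11 IDs had enough reads to be tested, as did 24660 IDs in all. RNA was sequenced from the thoracic stretch of the aorta, left subclavian artery to diaphragm, in 12 mice on the C57BL/6J strain. Every mouse was Eln+/-, that is, heterozygous for loss of the elastin gene, so the controls carry this change too, and mice with intact Eln were not analysed here. The 4 off-drug mice drank minoxidil, a vasodilator that opens potassium channels, from 2.5 to 3 months of age and then drug-free water for 1 week. The 4 on-drug mice drank minoxidil over the same ages and were taken at its end, and the 4 control mice drank plain water. The labels give an age of 3 months for all 3 groups, also for the off-drug mice with their added week, so the last week of life and the withdrawal cannot be told apart. The series title names extracellular matrix and vessel stiffness under minoxidil as the subject. Whole tissue was sequenced, so fewer macrophages and less RNA of these genes per macrophage cannot be told apart in any result here.

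Tissue macrophages live in the outer coat of the aorta, take up dead cells and debris, and depend on the receptor encoded by Csf1r for survival. C1q is built from A, B and C chains and is the recognition part of the classical complement pathway. It binds antibody complexes and dying cells and is made by macrophages in tissues rather than by the liver. The products of Itgam and Adgre1, known as CD11b and F4/80, are the usual surface markers of mouse macrophages, and Mrc1 and Cd163 encode scavenger receptors found on many resident macrophages.

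The libraries held between 41524501 and 109423243 counts, and the described genes had between 67 counts (Cx3cr1) and 15731 counts (Mrc1) in a library. The labels name no batch and give 4 mice a group, without saying that each library is 1 mouse, so p-values measure the spread between these libraries. No pair of libraries within a group matched within sampling noise (chi-square per degree of freedom between 25.94 and 117.5 over 18 pairs). The smooth muscle genes that define the aortic wall were abundant: their summed level ran from 17519.9 to 20044 CPM off drug, from 18208 to 20897 CPM on drug and from 15972 to 18472 CPM in controls. CPM is the count scaled to a common library size. Of the 8 smooth muscle genes, Myh11 and Lmod1 rose on drug against control (adjusted p below 0.05), and Myh11, Smtn and Lmod1 rose off drug against control. Off drug against on drug, Smtn rose and Cnn1 fell. Over all tested genes, 4.13% rose on drug and 6.27% off drug against control. Off drug against on drug, 5.44% rose and 6.92% fell. The calls of Lmod1 and Cnn1 were each lost when any of 7 single libraries was left out. Those of Smtn, and of Myh11 off drug, were lost with the erythroid score described below. On the first principal component (18.3% of the variance) the off-drug libraries stood apart from the other 8, and off-drug library 1 lay farthest out. Where leaving out that library, or any other, changed a call on the 10 genes, this is given beside the result.

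Per kilobase of exon, C1qa was the most abundant of the 10 genes, with 70.0 ± 3.98 RPKM off drug, 94.4 ± 4.73 RPKM on drug and 90.9 ± 7.83 RPKM in controls (SD, n = 4 each). RPKM is CPM divided by exon length in kilobases and was used to rank genes against each other. C1qb followed with a mean of 54.2 RPKM over the 12 libraries and C1qc with 41.9 RPKM. These 3 genes stood above 97.4%, 95.9% and 94.9% of the tested genes. Mrc1 and Csf1r had the same mean of 18.1 RPKM and overlapped in each group: Mrc1 was the lower of the pair in all 4 off-drug libraries and the higher in 3 of 4 libraries on drug and in controls. Adgre1 averaged 11.3 RPKM, Cd68 5.75 RPKM and Cd163 5.11 RPKM, and Cd68 and Cd163 overlapped on drug and in controls. Itgam at 2.12 RPKM lay near the middle of the tested genes, and Cx3cr1, the fractalkine receptor, was lowest at 0.553 RPKM. The other neighbours in this order did not overlap in any group.

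**Figure D1:**
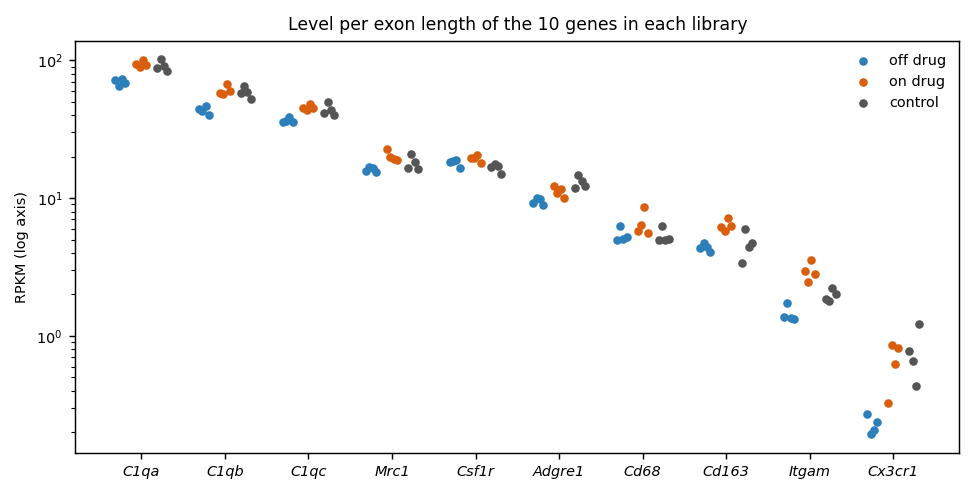
Level per exon length (RPKM, log axis) of the 10 genes in each of the 12 libraries, by group (off drug, on drug, control); each point is a library. C1qa averaged 85.1 RPKM over the libraries and Cx3cr1 0.553 RPKM.

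After withdrawal, most of these genes were lower. Off drug against on drug, 8 of the 10 genes fell (adjusted p below 0.05) and 0 rose, where 6.92% of all tested genes fell and 5.44% rose. The 8 were C1qa, C1qb, C1qc, Itgam, Adgre1, Mrc1, Cx3cr1 and Cd163. Against control, 6 of the 10 fell off drug (C1qa, C1qb, C1qc, Itgam, Adgre1 and Cx3cr1) and 0 rose, against 5.77% and 6.27% of all tested genes. On drug against control, 3 rose (Itgam, Csf1r and Cd163) and 0 fell, against 4.13% and 2.94% of all tested genes. Where the count was 0, DESeq2 and limma-voom also called 0. At an unadjusted p below 0.05 0 genes were higher in either off-drug comparison, and 1 (Adgre1) was lower on drug against control. The 3 comparisons share libraries, so their results are not independent of each other. The median log2 fold change of the 10 genes was -0.38 off drug against on drug, -0.32 off drug against control and 0.11 on drug against control, where those of all tested genes were -0.0011, -0.0077 and 0.0049.

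In the same libraries, genes of red cells were also lower off drug than in controls. The summed level of 8 erythroid genes, haemoglobin genes among them, ran from 2039 to 4804 CPM off drug, from 3880.2 to 6005 CPM on drug and from 4929 to 20576 CPM in controls. All 8 fell off drug against control (log2 fold changes between -2.51 and -1.67), where 5.77% of all tested genes fell. That count was 2 to 5 when control library 2, 3 or 4, off-drug library 2, 3 or 4, or on-drug library 1 or 3 was left out. The call of Hbb-bs was lost without off drug 2, 3 or 4 or control 3 or 4 (adjusted p up to 0.087). That of Hbb-bt was lost without any of the same 5 libraries or on drug 3 (up to 0.091). A list of skeletal muscle genes summed to between 7.35 and 19.9 CPM off drug, 8.29 and 10.4 CPM on drug and 5.41 and 7.05 CPM in controls. With the erythroid score as a covariate, 4 of the 10 genes fell off drug against on drug, 0 fell off drug against control and 1 rose on drug against control. Over all tested genes that score also cut these counts, from 1706 to 927, from 1422 to 237 and from 1018 to 656. The calls against control were lost while the log2 fold changes of C1qa, C1qb, C1qc and Adgre1 were -0.39, -0.47, -0.31 and -0.47, as large as or larger than without the score, and those of Itgam and Cx3cr1 were smaller (-0.34 and -1.33). With the skeletal muscle score, 3 of the 10 fell off drug against control and 1 rose on drug against control. Over all tested genes those counts went from 1422 to 521 and from 1018 to 643. The erythroid score differs between the groups, so such a fit also takes out what the groups and the score share, and the part of blood content in the results was not tested.

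**Figure D2:**
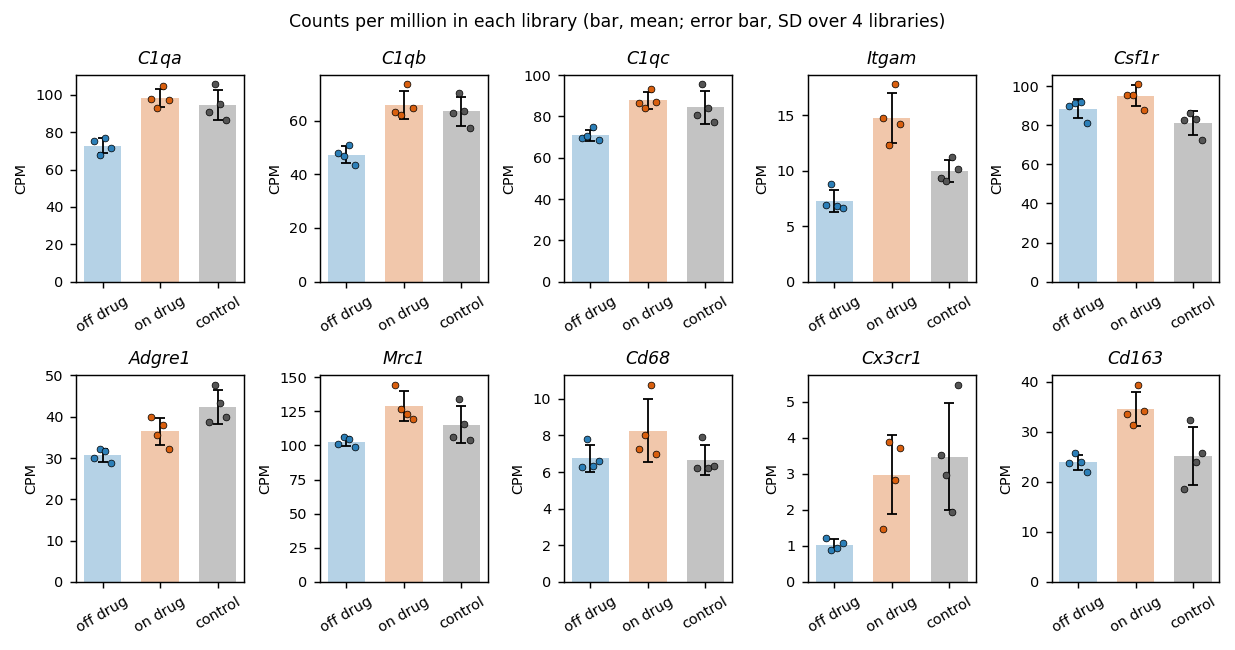
Level in scaled counts (CPM) of each of the 10 genes, by group (off drug, on drug, control); bars are means, error bars the SD over 4 libraries, and points the libraries. Each C1q chain was lower in every off-drug library than in every library of the other groups, and Itgam was highest on drug.

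The C1q chains fell together after withdrawal, and none was called on drug against control. C1qa, the A chain, stood at 75.5, 67.6, 76.7 and 71.3 CPM in the off-drug libraries, at 97.6, 93.1, 105 and 97.0 CPM on drug, and at 90.8, 106, 95.1 and 86.6 CPM in controls. The off-drug libraries lay below all of the other 8, which overlapped. The C1qa level off drug was 0.741 times the on-drug level (log2 fold change -0.43 ± 0.07 (SE), adjusted p = 0.00022) and 0.770 times the control level (-0.38 ± 0.07, adjusted p = 0.0010). On drug against control its log2 fold change was 0.05 ± 0.07 (adjusted p = 0.70).

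C1qb, the B chain, had 48.0, 46.8, 51.1 and 43.5 CPM off drug, 63.3, 62.1, 73.5 and 64.7 CPM on drug, and 62.9, 70.3, 63.8 and 57.2 CPM in controls. It fell by 0.48 ± 0.07 on the log2 scale off drug against on drug (adjusted p = 0.00020) and by 0.42 ± 0.07 off drug against control (adjusted p = 0.00079), with no overlap between the groups. C1qc, the C chain, had 69.4, 70.4, 74.8 and 68.5 CPM off drug, 86.4, 84.3, 93.4 and 87.0 CPM on drug, and 80.6, 95.5, 84.0 and 77.5 CPM in controls. Its log2 fold changes were -0.31 ± 0.06 off drug against on drug (adjusted p = 0.0033) and -0.25 ± 0.06 off drug against control (adjusted p = 0.015). Neither gene passed on drug against control, with log2 fold changes of 0.05 for C1qb and 0.06 for C1qc. None of the 3 falls off drug against on drug was lost under any of 25 other settings. The falls of C1qa and C1qb against control were lost with the erythroid score (log2 fold changes -0.39 and -0.47, adjusted p = 0.091 and 0.061) and with the skeletal muscle score (adjusted p = 0.11 and 0.058). That of C1qc was lost in 5 settings, among them leaving out control library 2 (adjusted p = 0.051) and scaling by library size alone (0.12).

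The 3 genes lie side by side on the minus strand of chromosome 4 in GRCm38, C1qb (ENSMUSG00000036905.8) at 136880129 to 136886187, C1qc (ENSMUSG00000036896.5) at 136889804 to 136893065 and C1qa (ENSMUSG00000036887.5) at 136895917 to 136898803, each with 3 exon starts in the counted annotation. From C1qb to C1qa they span 18675 bases, with 3616 bases between C1qb and C1qc and 2851 bases between C1qc and C1qa, and no other annotated exon overlaps theirs. Promoters of myeloid genes often bind PU.1, the factor encoded by Spi1, whose core motif is GAGGAA. RefSeq windows of 300 bases (250 before to 50 after the start, GRCm38.p6) were at hand for 7 of the 10 genes. The motif, searched on both strands, was in 5 of the 7 windows (71.4%) and in 9289 of 32851 windows of that length (28.3%). C1qb, C1qc, Itgam, Cd68 and Mrc1 held it, and the windows of Cd163 and Cx3cr1 did not hold these letters. The sequences of the neighbouring C1q genes and of Itgam are shown because C1qb and C1qc moved together and Itgam changed in each comparison. They are chr4:136886151-136886450 (minus strand), chr4:136892865-136893164 (minus strand) and chr7:128062390-128062689 (plus strand). Each reads 5′ to 3′ on the strand of its gene, and capitals mark GAGGAA or its reverse complement TTCCTC.
C1qb: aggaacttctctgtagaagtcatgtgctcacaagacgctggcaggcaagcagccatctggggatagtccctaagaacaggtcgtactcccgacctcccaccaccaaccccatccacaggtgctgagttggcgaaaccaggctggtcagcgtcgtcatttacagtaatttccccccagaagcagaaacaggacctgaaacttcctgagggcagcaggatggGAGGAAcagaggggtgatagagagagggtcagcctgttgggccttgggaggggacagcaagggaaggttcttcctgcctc
C1qc: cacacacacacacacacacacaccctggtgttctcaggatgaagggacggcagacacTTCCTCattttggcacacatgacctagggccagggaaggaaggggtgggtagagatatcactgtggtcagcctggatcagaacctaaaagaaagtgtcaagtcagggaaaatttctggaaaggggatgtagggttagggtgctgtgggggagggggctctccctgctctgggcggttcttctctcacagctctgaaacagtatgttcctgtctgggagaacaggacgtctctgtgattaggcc
Itgam: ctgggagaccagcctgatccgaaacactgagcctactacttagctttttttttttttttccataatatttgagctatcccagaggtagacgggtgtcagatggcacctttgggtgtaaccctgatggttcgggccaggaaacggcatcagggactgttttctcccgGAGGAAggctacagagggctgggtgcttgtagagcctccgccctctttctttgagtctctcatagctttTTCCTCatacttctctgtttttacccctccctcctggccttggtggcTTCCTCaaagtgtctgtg
C1qb held the motif once on its own strand and C1qc once on the other strand, while Itgam held 3 copies. A match describes these letters and does not show binding.

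Itgam, the alpha chain of complement receptor 3 on macrophages, monocytes and neutrophils, was the gene of the 10 that changed in all 3 comparisons. It had 6.93, 8.78, 6.83 and 6.64 CPM off drug, 14.8, 12.3, 17.8 and 14.2 CPM on drug, and 9.36, 9.05, 11.3 and 10.1 CPM in controls. The 3 groups did not overlap: each on-drug library was above, and each off-drug library below, all controls. Itgam was 1.48 times the control level on drug (log2 fold change 0.57 ± 0.12, adjusted p = 0.0067) and 0.494 times the on-drug level off drug (-1.02 ± 0.12, adjusted p = 1.2e-05), and both calls were kept in all 25 other settings. Off drug against control it fell by 0.45 ± 0.12 on the log2 scale (adjusted p = 0.018). That call was lost in 7 settings, among them leaving out control library 3 (adjusted p = 0.069), off-drug library 1 (0.055), 3 (0.059) or 4 (0.061) and the erythroid score (0.46). The gene (ENSMUSG00000030786.18) lies on the plus strand of chromosome 7 at 128062640 to 128118491, and overlaps a second ID of the same symbol (ENSMUSG00000108596.1, 128062683 to 128128160). They share 68.7% of the exon bases of the first ID and 71.8% of those of the second, so reads there counted for both. The second ID had 6.33 ± 0.79 CPM off drug, 12.6 ± 2.20 CPM on drug and 8.26 ± 0.77 CPM in controls and passed in the same 3 comparisons. Itgb2, the beta chain that pairs with the Itgam product, averaged 7.43 ± 1.21 CPM off drug, 12.05 ± 2.17 CPM on drug and 10.5 ± 1.69 CPM in controls. It fell off drug against on drug (log2 fold change -0.70 ± 0.15, adjusted p = 0.0045) and off drug against control (-0.50 ± 0.15, adjusted p = 0.037, lost when any of 6 single libraries was left out: control 2, 3 or 4, off drug 3 or 4, or on drug 2), and its value of 0.20 on drug against control did not pass (adjusted p = 0.47). With the erythroid score both Itgb2 falls were lost (adjusted p = 0.098 and 0.68). The fall against control was also lost with the skeletal muscle score (0.059).

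Csf1r, the receptor for the growth factors Csf1 and Il34, was called higher on drug and was not called in either off-drug comparison. It had 89.9, 91.1, 91.9 and 81.2 CPM off drug, 95.7, 95.6, 101 and 88.0 CPM on drug, and 82.6, 86.1, 83.3 and 72.6 CPM in controls. The on-drug libraries lay above all controls, and the off-drug libraries overlapped both groups. Its log2 fold changes were 0.23 ± 0.07 on drug against control (adjusted p = 0.040), 0.13 ± 0.06 for off drug over control (0.24) and -0.10 ± 0.07 for off drug over on drug (0.36). The rise on drug was lost in 15 of 25 settings. These include leaving out any control library, off-drug library 1, 2 or 3, or on-drug library 1, 2 or 3, with adjusted p between 0.051 and 0.15. Csf1r (ENSMUSG00000024621.15) shares 17.8% of its exon bases with Hmgxb3, which cannot be told apart there without strand; Hmgxb3 itself had log2 fold changes of 0.01 in each comparison. Csf1 averaged 54.4 ± 3.61 CPM off drug, 67.1 ± 7.42 CPM on drug and 55.4 ± 7.45 CPM in controls. It fell off drug against on drug (-0.30 ± 0.09, adjusted p = 0.037), a call lost when any of 7 single libraries was left out (control 2, off drug 2, 3 or 4, or on drug 1, 2 or 4, adjusted p up to 0.11). Il34 averaged 0.590 CPM off drug, 0.543 CPM on drug and 0.644 CPM in controls and did not pass in any comparison.

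Adgre1 and Cx3cr1 were lower off drug than in both other groups. Adgre1, which encodes the F4/80 antigen, had 29.96, 32.3, 31.7 and 28.8 CPM off drug, 39.9, 35.6, 38.1 and 32.3 CPM on drug, and 38.7, 47.8, 43.3 and 39.9 CPM in controls. The off-drug libraries were below all others, though the highest of them and the lowest on-drug library were close, and on drug overlapped control. Adgre1 fell off drug against control (log2 fold change -0.47 ± 0.08, adjusted p = 0.00063), and the erythroid score alone among 25 settings ended that call (log2 fold change -0.47, adjusted p = 0.088). It also fell off drug against on drug (-0.25 ± 0.08, adjusted p = 0.043), but this was lost in 12 settings, among them leaving out any off-drug library or on-drug library 1, 2 or 3 (adjusted p between 0.052 and 0.13). On drug against control the value was -0.22 ± 0.08 (adjusted p = 0.098), which passed without control library 1 (0.044) or without on-drug library 1 (0.041). The gene (ENSMUSG00000004730.14) lies on the plus strand of chromosome 17 at 57358686 to 57483529 and overlaps no other annotated exon.

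Cx3cr1, the receptor for fractalkine, found on patrolling monocytes and some macrophages, had 1.22, 0.875, 0.935 and 1.08 CPM off drug, 1.48, 3.88, 2.83 and 3.71 CPM on drug, and 3.51, 2.96, 1.94 and 5.47 CPM in controls. It was the most variable of the 10 genes on drug and in controls, and the off-drug libraries lay below the other 8. It was 0.346 times the on-drug level off drug (log2 fold change -1.53 ± 0.33, adjusted p = 0.0076) and 0.294 times the control level (-1.77 ± 0.33, adjusted p = 0.0035). Both calls were lost with the erythroid score alone (log2 fold changes -1.29 and -1.33, adjusted p = 0.086 and 0.26). On-drug library 1 stood near the off-drug libraries, and the value on drug against control was -0.24 ± 0.31 (adjusted p = 0.73). Its ligand Cx3cl1 averaged 9.87 ± 1.66 CPM off drug, 8.33 ± 1.81 CPM on drug and 6.94 ± 2.09 CPM in controls and did not pass in any comparison. The Cx3cr1 gene (ENSMUSG00000052336.7) lies on the minus strand of chromosome 9 at 119901616 to 120069879 and shares 1.73% of its exon bases with another annotated gene.

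The scavenger receptor genes Cd163 and Mrc1 had their highest mean on drug, and for both the on-drug and control libraries overlapped. Cd163, whose product takes up complexes of haemoglobin and haptoglobin, had 23.7, 25.8, 24.0 and 22.05 CPM off drug, 33.6, 31.3, 39.4 and 34.1 CPM on drug, and 18.5, 32.5, 24.0 and 25.7 CPM in controls. Control library 2 reached into the on-drug range, and the other controls lay below it. Cd163 fell off drug against on drug (log2 fold change -0.54 ± 0.13, adjusted p = 0.015, lost with the erythroid score alone, at -0.41 and 0.20). Its rise on drug against control (0.46 ± 0.13, adjusted p = 0.049) was lost in 16 of 25 settings, among them leaving out any off-drug or on-drug library or control library 3 or 4 (adjusted p between 0.059 and 0.14). Off drug against control the value was -0.08 ± 0.13 (adjusted p = 0.77). The gene (ENSMUSG00000008845.9) lies on the plus strand of chromosome 6 at 124304656 to 124330527.

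Mrc1, the mannose receptor CD206, had 101, 107, 105 and 98.7 CPM off drug, 144, 127, 123 and 119.6 CPM on drug, and 106, 134, 116 and 104 CPM in controls. It fell by 0.32 ± 0.08 on the log2 scale off drug against on drug (adjusted p = 0.0084, and 0.0501 with the erythroid score, where the value was -0.35), where the groups did not overlap. The values of -0.16 ± 0.08 off drug and 0.16 ± 0.08 on drug against control did not pass (adjusted p = 0.18 and 0.23). Cd68, a lysosomal membrane protein of macrophages, had 6.26, 7.84, 6.33 and 6.58 CPM off drug, 7.27, 8.03, 10.8 and 7.004 CPM on drug, and 6.25, 7.92, 6.20 and 6.35 CPM in controls. All 3 groups overlapped and no comparison passed (log2 fold changes -0.29, 0.02 and 0.30 off drug against on drug, off drug against control and on drug against control, adjusted p = 0.18, 0.96 and 0.18). Mrc1 (ENSMUSG00000026712.3) lies on the plus strand of chromosome 2 at 14229392 to 14332057, and Cd68 (ENSMUSG00000018774.13) on the minus strand of chromosome 11 at 69664213 to 69666153.

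**Figure D3:**
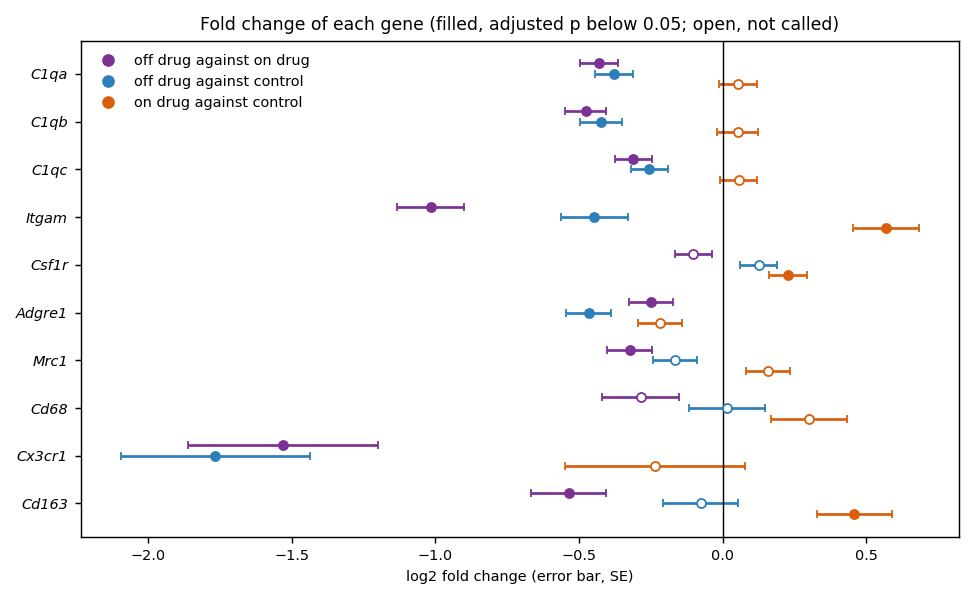
Log2 fold change of each gene (error bar, SE) off drug against on drug, off drug against control and on drug against control; filled points had an adjusted p below 0.05. Cx3cr1 and Itgam had the lowest values off drug against on drug (-1.53 and -1.02), and Csf1r and Cd68 were not called in either off-drug comparison.

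The genes whose groups did not overlap were the called ones, except Cd163 on drug against control. Every off-drug library lay below every on-drug library for the same 8 of the 10 genes (9.37% of all tested genes) and above for 0 (9.44%). Every off-drug library lay below every control for the same 6 genes (7.73% of all tested genes) and above for 0 (9.20%). Every on-drug library lay above every control for 2, Itgam and Csf1r (6.30% of all tested genes), and below for 0 (6.01%).

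Set against Csf1r in the same library, some of the markers kept different proportions in the 3 groups. These ratios do not depend on library scaling; they describe unequal change and were not tested. C1qa per Csf1r was 0.824 ± 0.058 off drug, 1.03 ± 0.05 on drug and 1.17 ± 0.06 in controls (ratio of CPM, SD). Adgre1 per Csf1r was 0.333 to 0.354 off drug, 0.367 to 0.417 on drug and 0.468 to 0.555 in controls, without overlap. Itgam per Csf1r was 0.0743 to 0.0964 off drug, 0.129 to 0.176 on drug and 0.105 to 0.140 in controls. The ratio was thus lowest off drug for each of these 3 genes. The on-drug mean lay between the other means for C1qa and Adgre1 and was the highest for Itgam. On drug and control overlapped for C1qa (0.975 to 1.102 and 1.099 to 1.226) and for Itgam. Cd68 per Csf1r overlapped in all groups (0.0688 to 0.0860 off drug, 0.0760 to 0.107 on drug and 0.0744 to 0.0920 in controls), and Cd163 per Csf1r off drug (0.261 to 0.283) lay within the control range (0.224 to 0.377). Cd163 per Adgre1 was 0.778 ± 0.021 off drug, 0.954 ± 0.108 on drug and 0.589 ± 0.091 in controls, and its ranges did not overlap. Among the C1q chains the proportions were nearly fixed. By RPKM, C1qa made up 46.6% of the C1q sum off drug, 47.1% on drug and 47.1% in controls. The share of C1qb was 29.0% off drug, 30.2% on drug and 30.3% in controls. The share of C1qc was 23.5% to 25.2% off drug, above the range of 22.3% to 22.9% both on drug and in controls.

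**Figure D4:**
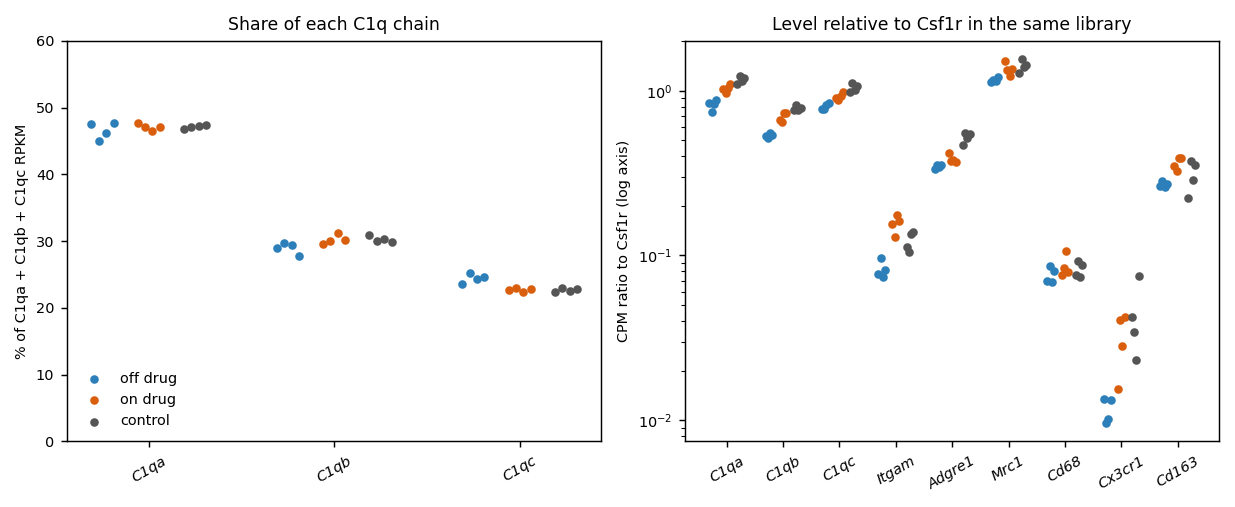
Left, share of each chain in the summed C1q RPKM of a library (%); right, CPM of 9 genes divided by that of Csf1r in the same library (log axis); points are libraries, by group (off drug, on drug, control). The share of C1qc was 24.4% off drug, 22.7% on drug and 22.6% in controls, and C1qa per Csf1r was lowest off drug.

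Across the 12 libraries the levels of the C1q chains followed each other (Pearson r of log2 CPM 0.97 to 0.98), also after each group's mean was taken out (0.86 to 0.91). C1qa and Csf1r had r = 0.19 over all libraries and 0.60 within groups, and C1qa and Itgam 0.76 over all and -0.05 within groups. Adgre1 and Mrc1 had r = 0.62 over all and 0.88 within groups. These correlations share libraries, depth and the group differences above and are given as descriptions. Other genes were compared with the mean of the C1q chains where their mean log2 CPM was at or above 1. The described genes, genes without a symbol and gene models (such as Gm or Rik names) were left out, which gave 12245 genes. The 8 most like that mean over the 12 libraries were Stmn1 (r = 0.946), Elmo2, Zfp36, Tlr8, Adamts12, Clk3, Nrarp and Tk1 (0.931). After each group's mean was taken out, their r lay between 0.57 (Clk3) and 0.80 (Tk1). Stmn1, the highest over all libraries, averaged 3.95 CPM off drug, 6.86 CPM on drug and 6.19 CPM in controls. Of the others, Tlr8 encodes an endosomal receptor for RNA and averaged 4.44 CPM off drug, 7.89 CPM on drug and 7.77 CPM in controls. Zfp36, which encodes a protein that destabilises inflammatory mRNAs, averaged 25.6 CPM off drug, 58.5 CPM on drug and 54.6 CPM in controls.

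Other genes of resident macrophages were measured from a list of 16, all of them tested. Off drug against on drug 7 fell and 0 rose, off drug 3 fell and 1 rose against control, and on drug 3 rose and 0 fell against control, with median log2 fold changes of -0.30, -0.19 and 0.06. Over all tested genes, 6.92% fell and 5.44% rose off drug against on drug. Against control those shares were 5.77% and 6.27% off drug, and 2.94% and 4.13% on drug. With the erythroid score the counts of falls were 2 and 0, and the fall count off drug against control was 1 without off drug 1 or 4 or control 3 or 4. At an unadjusted p below 0.05, 0 rose off drug against on drug and 0 fell on drug against control, and DESeq2 and limma-voom gave 0 in both. Lyve1, a hyaluronan receptor of macrophages along arteries and of lymphatic vessels, averaged 33.1 ± 5.28 CPM off drug, 78.1 ± 4.47 CPM on drug and 48.0 ± 9.35 CPM in controls. It rose on drug against control (log2 fold change 0.70 ± 0.14, adjusted p = 0.0094) and fell off drug against on drug (-1.24 ± 0.14, adjusted p = 7.5e-05), both kept in every other setting. Its fall off drug against control (-0.53 ± 0.14, adjusted p = 0.023) was lost without control library 3 or 4 or off-drug library 1, 3 or 4 (adjusted p up to 0.078). Stab1, a scavenger receptor of macrophages and some endothelium, rose on drug (0.45 ± 0.07, adjusted p = 0.0011) and fell off drug against on drug (-0.38 ± 0.07, adjusted p = 0.0011). Mertk, a receptor for dying cells, fell off drug against on drug (-0.28 ± 0.07, adjusted p = 0.0062) and against control (-0.36 ± 0.07, adjusted p = 0.0012). Both Mertk calls were lost with the erythroid score (adjusted p = 0.063 and 0.13).

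Folr2, a folate receptor of resident macrophages, fell off drug against on drug (log2 fold change -0.36 ± 0.08, adjusted p = 0.0066) and off drug against control (-0.27 ± 0.08, adjusted p = 0.039, lost without control 2, 3 or 4, off drug 1, 2 or 4, or on drug 2). F13a1, the A chain of coagulation factor XIII, fell off drug against on drug (-0.32 ± 0.09, adjusted p = 0.023, lost without off drug 1 or 4 or on drug 1 or 3). With the erythroid score both Folr2 calls were lost (adjusted p = 0.12 and 0.65), as was that of F13a1 (0.30). Timd4, a receptor for phosphatidylserine, averaged 2.51 ± 0.46 CPM off drug, 3.17 ± 0.60 CPM on drug and 3.22 ± 0.83 CPM in controls and did not pass.

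In the complement system beyond C1q, 29 of 33 listed genes in the files could be tested. Off drug against on drug 9 fell, 3 with the erythroid score, and 1 (C1qbp) rose, 0 without off-drug library 3 or 4 or on-drug library 1, 2 or 4 or with the erythroid score. Against control, 3 fell (C6, Fcna, Itgb2) and 1 (Serping1) rose off drug, and 1 (Serping1) rose and 0 fell on drug (at an unadjusted p below 0.05, 1 fell; by DESeq2 and limma-voom, 0). Over all tested genes, 6.92% fell and 5.44% rose off drug against on drug. Against control those shares were 5.77% and 6.27% off drug, and 2.94% and 4.13% on drug. The 3 falls off drug against control were 6 without control library 1, 1 without control library 2 or on-drug library 2, 8 by DESeq2 and 0 with the erythroid or skeletal muscle score. The call of C6 was lost in 15 of 24 settings, 8 of them with a single library left out (control 1 or 2, off drug 2, 3 or 4, or on drug 2, 3 or 4), and its log2 fold change of -1.79 was -1.01 without control library 2. The medians were -0.25, -0.07 and 0.20 on the log2 scale. The genes of the serine proteases that C1q binds were not called. C1ra averaged 155 ± 8.997 CPM off drug, 148 ± 4.003 CPM on drug and 140.4 ± 8.93 CPM in controls, and C1s1 101 ± 7.19 CPM off drug, 112 ± 6.67 CPM on drug and 96.8 ± 6.87 CPM in controls, and neither passed in any comparison. Serping1, which encodes the inhibitor of those proteases, averaged 247 ± 11.97 CPM off drug, 263 ± 15.7 CPM on drug and 204 ± 12.7 CPM in controls. It rose on drug (log2 fold change 0.36 ± 0.06, adjusted p = 0.0023) and off drug (0.28 ± 0.06, adjusted p = 0.0069) against control, and both treated groups lay above all controls. The Serping1 call off drug was lost with the erythroid score (adjusted p = 0.37) and the skeletal muscle score (0.17). C3, the central component, averaged 88.1 ± 25 CPM off drug, 71.6 ± 9.41 CPM on drug and 106 ± 34.1 CPM in controls and did not pass.

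C4b, cleaved by the activated C1 complex, averaged 56.9 ± 8.40 CPM off drug, 91.6 ± 14.97 CPM on drug and 74.3 ± 12.8 CPM in controls and fell off drug against on drug (log2 fold change -0.69 ± 0.15, adjusted p = 0.011). Its near-identical neighbour C4a fell too (-0.72 ± 0.13, adjusted p = 0.00092), but reads that map to several places were counted for each, so the pair is uncertain. The C4b call was lost with the erythroid score (adjusted p = 0.066). Fcna, a ficolin that recognises sugars on microbes, fell off drug against on drug (-0.91 ± 0.13, adjusted p = 9.0e-05) and against control (-0.62 ± 0.13, adjusted p = 0.0035). The receptors for the small complement fragments also fell off drug against on drug, C3ar1 by 0.65 ± 0.17 (adjusted p = 0.020) and C5ar1 by 0.54 ± 0.17 (adjusted p = 0.040). The C3ar1 call was lost without off drug 1 or 3 or on drug 2 or 3 (adjusted p up to 0.070), and that of C5ar1 without off drug 1, 3 or 4 or on drug 2, 3 or 4 (up to 0.13). Both were lost with the erythroid score (adjusted p = 0.18 and 0.082).

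Some genes shared by myeloid cells were also lower off drug. Of 16 tested, 8 fell off drug against on drug and 5 off drug against control, with 0 rises in both (medians -0.45 and -0.33 on the log2 scale), and 3 had positive values in each. Over all tested genes, 6.92% and 5.77% fell and 5.44% and 6.27% rose in these comparisons. The 8 became 3 with the erythroid score and 5 without off-drug library 1 or on-drug library 1 or 3. The 5 became 0 with the erythroid or skeletal muscle score and 3 without control library 2, 3 or 4 or off-drug library 1 or 3. At an unadjusted p below 0.05, 2 were higher off drug against on drug and 0 off drug against control, and DESeq2 and limma-voom called no rise. On drug against control 1 rose, Spi1, the gene of PU.1, where 4.13% of all tested genes rose. Spi1 averaged 3.91 ± 0.15 CPM off drug, 6.46 ± 0.91 CPM on drug and 4.50 ± 0.73 CPM in controls. Its rise on drug was 0.52 ± 0.13 on the log2 scale (adjusted p = 0.022, lost without control 1 or 2 or on drug 2 or 3), and its fall off drug against on drug was 0.72 ± 0.13 (adjusted p = 0.0010). That fall was lost with the erythroid score (adjusted p = 0.055). Fcgr3, an antibody receptor, fell off drug against on drug (-0.49 ± 0.11, adjusted p = 0.0062) and against control (-0.48 ± 0.11, adjusted p = 0.0080). Both Fcgr3 calls were lost with the erythroid score (adjusted p = 0.13 and 0.45). Among 10 tested ligands and chemokines for these cells, Csf1 fell off drug against on drug, Ccl2, a monocyte attractant, fell off drug against control (-2.79 ± 0.60, adjusted p = 0.014), and Tgfb1 rose on drug against control (0.43 ± 0.12, adjusted p = 0.029, lost without control 2, 3 or 4 or on drug 2, 3 or 4). With the erythroid score these calls were lost (adjusted p = 0.094, 0.36 and 0.11).

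Of 18 lysosomal and uptake genes, 1 fell off drug against on drug (Ctsl, a lysosomal protease, -0.27 ± 0.06 on the log2 scale, adjusted p = 0.0085, lost without off-drug library 4 at 0.051 and with the erythroid score at 0.13), and the median was -0.03. Over all tested genes 6.92% fell and 5.44% rose in that comparison. Against control, 2 of the 18 rose (Axl and Mfge8) and 2 fell (Ctsl and Msr1) off drug, and 1 rose (Mfge8) on drug. The shares of all tested genes there were 6.27%, 5.77% and 4.13%. The Axl call was lost without any off-drug library or control 2, 3 or 4, and that of Ctsl without off drug 3 or 4, on drug 2, or control 3 or 4. The Mfge8 call off drug was lost without off drug 1 or control 2 or 3, and that on drug without off drug 3, on drug 2, 3 or 4, or control 2, 3 or 4. With the erythroid or skeletal muscle score 0 of the 18 were called against control. The list of 9 MHC class II and costimulatory genes had 0 calls in either direction in the 3 comparisons. At an unadjusted p below 0.05, 1 of them was lower off drug against on drug, 0 off drug against control and 1 on drug against control, and none was higher. DESeq2 called 1 fall, off drug against on drug, and limma-voom called 0. Among 9 genes of haem and iron handling, Fth1 rose (lost without off-drug library 1, adjusted p = 0.069) and Slc11a1 fell off drug against on drug, both lost with the erythroid score, and Hmox1 did not pass in any comparison.

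Markers of cells that share some of these genes were measured beside them. Over all tested genes, 6.92% fell and 5.44% rose off drug against on drug. Against control those shares were 5.77% and 6.27% off drug, and 2.94% and 4.13% on drug. Of 10 tested monocyte and neutrophil genes, Ly6c2 (log2 fold change -0.75 ± 0.14, adjusted p = 0.0012) and Ccr2 (-1.50 ± 0.38, adjusted p = 0.031) fell off drug against on drug and 0 passed in the other comparisons. Against control, 5 were lower off drug at an unadjusted p below 0.05 (by DESeq2 5 calls, by limma-voom 2), and 2 were higher and 2 lower on drug (by DESeq2 1 rise, by limma-voom 0). Their summed level ran from 16.5 to 28.5 CPM off drug, 36.2 to 48.9 CPM on drug and 27.3 to 53.5 CPM in controls. The Ccr2 call was lost without any off-drug library or on-drug library 1, 2 or 3. With the erythroid score the falls of Ly6c2 and Ccr2 were both lost (adjusted p = 0.051 and 0.22). Dendritic cell genes summed to between 22.04 and 24.2 CPM off drug, 21.4 and 26.5 CPM on drug and 19.7 and 21.1 CPM in controls. Of these 9 genes, 1 (Ccr7) rose on drug against control (log2 fold change 2.50), and 0 were called in the other comparisons. The Ccr7 call was lost in 7 of 23 settings, among them leaving out control 2, 3 or 4 or on drug 2. Lymphocyte genes summed to between 8.71 and 14.6 CPM off drug, 5.55 and 24.1 CPM on drug and 4.39 and 9.14 CPM in controls. Endothelial genes summed to between 559 and 724 CPM off drug, 759.8 and 880.1 CPM on drug and 595 and 685 CPM in controls, and fibroblast genes to between 3296 and 3672 CPM off drug, 4135 and 4610.4 CPM on drug and 3335 and 3798 CPM in controls. Of 6 fibroblast genes 3 fell off drug against on drug (Col1a1, Pi16 and Dpt), and 1 (Col1a1) rose on drug against control. Col1a1, a collagen gene, fell off drug against on drug (log2 fold change -1.01 ± 0.11, adjusted p = 3.4e-05) and rose on drug against control (0.85 ± 0.11, adjusted p = 0.00067), both kept in all 25 other settings, while the Dpt call was lost without off drug 1 or 4 or on drug 1 or 3. Of 6 endothelial genes 3 fell off drug against on drug (Cdh5, Vwf and Tek), 1 (Tek) fell off drug against control, and 2 (Cdh5 and Vwf) rose on drug against control, the Cdh5 rise lost without on drug 3 or control 3. With the erythroid score the Dpt call was lost (adjusted p = 0.16), as were both Tek calls (0.056 and 0.31). The Tek call against control was also lost with the skeletal muscle score (0.25). The fibroblast and endothelial calls off drug against on drug have the same direction as those of the described genes. Of 8 mast cell genes, 3 rose on drug against control (Cpa3, Mcpt4 and Mrgprb1) and 2 fell off drug against on drug (Cpa3 and Mrgprb1); the list summed to between 8.08 and 21.2 CPM off drug, 18.8 and 30.2 CPM on drug and 10.5 and 16.8 CPM in controls. Each of these mast cell calls was lost when any of 5 to 8 single libraries was left out. Among 12 lymphocyte genes 0 were called; at an unadjusted p below 0.05, 1 was higher off drug against on drug, 0 off drug against control and 3 on drug against control, and DESeq2 called 1, 0 and 1 of these and limma-voom 1, 0 and 0. No marker of these lists was at 0 in all 12 libraries. The part of these other cell types in the levels of Itgam, Spi1 and the other genes was not tested.

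**Figure D5:**
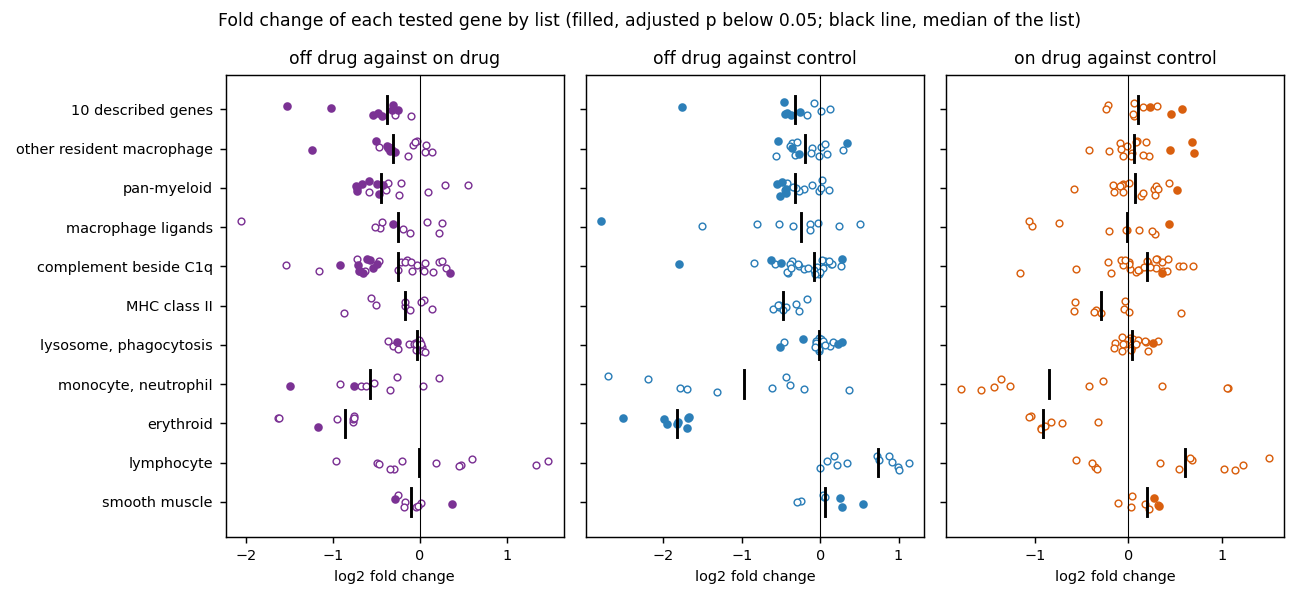
Log2 fold change of each tested gene by list, off drug against on drug, off drug against control and on drug against control; filled points had an adjusted p below 0.05 and the black line is the median of the list. The medians off drug against on drug were -0.38 for the 10 described genes, -0.45 for pan-myeloid genes and -0.03 for lysosome and phagocytosis genes.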

How the data were processed

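Each of the 12 libraries has a deposited table of raw read counts, whole numbers per gene. Per the file headers, the authors ran featureCounts 1.4.6-p3 with the annotation GENCODE M13 and an index from STAR 2.5.3a. The submitters' processing notes name GRCm38 as the build. The recorded options ignored duplicates, set no strand, and counted reads with several matches or over several genes for each of them, so overlapping genes and near-identical copies share reads. A deposited table of all genes on a log2 scale matched the logarithm of size-factor-scaled counts plus 1 within 5e-09 and served for symbols and coordinates. No value column was left unmapped.

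The main test was edgeR 4.0.16 (R 4.3.3): filterByExpr (minimum count 10, minimum total 15), TMM scaling, and one robust quasi-likelihood fit of the 3 groups. Contrasts were two-sided, with Benjamini-Hochberg adjustment over 24660 genes and calls at an adjusted p below 0.05. CPM has SDs over 4 libraries, and log2 fold changes have SEs derived from the F statistic. Alternatives used DESeq2 1.42.0, limma 3.58.1 (voom), other scalings and filters, covariates (mean log2 CPM of a marker list), and each library left out. The fit was tested on simulated data. Same-numbered libraries of different groups did not deviate together (r between -0.080 and 0.067 over 12 pairs). Members and lists were chosen with earlier results of these data known. All 10 genes are described, with 16 other named genes and up to 4 called genes per list and comparison, and of the genes most like C1q 8 are named; some listed genes are counted in their lists but not reported by name here. Promoter windows came from RefSeq (GRCm38.p6). Cell types behind the markers come from textbook knowledge.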

Additional observations from a re-analysis of the deposited data

Results flagged for a closer look

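In 204 groups of 4 libraries, a single library stood apart from the others in 10, where chance gives about 1 in 20 (10.2 groups). For the 11 gene IDs of the described genes, Itgam counted under both of its IDs, this held in 2 of 33 groups. Itgam in off-drug library 2 was 8.78 CPM against 6.64 to 6.93 CPM in the other off-drug libraries, still below every control. Cd68 in control library 2 was 7.92 CPM against 6.20 to 6.35 CPM in the other controls.

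Among the listed genes, on-drug library 2 was highest for Ccl2 (4.33 CPM) and Ctsl (432 CPM). On-drug library 3 was highest for Ckm (4.93 CPM) and Slc11a1 (11.8 CPM), and on-drug library 1 was lowest for Smtn (150.2 CPM). Off-drug library 3 was highest for Fcna (6.19 CPM) and off-drug library 1 for Fth1 (671 CPM). Control library 2 was highest for Timd4 (4.46 CPM).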

How the results depend on the processing

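Of the 10 described genes, 8 fell off drug against on drug: 4 with the erythroid score as a covariate, and 7 to 8 with single libraries left out. The 6 falls off drug against control became 0 with the erythroid score (log2 fold changes of C1qa, C1qb, C1qc and Adgre1 -0.39, -0.47, -0.31 and -0.47, against -0.38, -0.42, -0.25 and -0.47 without it), 3 with the skeletal muscle score and 5 to 6 with single libraries left out. The 3 rises on drug against control became 1 with the 2 compared groups alone, the erythroid score or the skeletal muscle score, and 1 to 2 with a library left out; the count of falls there was 0 to 1. The counts of rises off drug were 0 under all 25 alternatives. With the replicate block, 8 fell off drug against on drug, 6 fell off drug against control and 3 rose on drug against control, as without it, while the 8 erythroid falls off drug against control became 2; the libraries share only a number. None of the called values of the 10 genes changed sign; with the erythroid score the values of Hbb-bs and Hbb-bt off drug against control reversed to 0.037 and 0.067. The cause of these changes was not tested.

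Over all tested genes, on drug against control gave 1018 rises and 725 falls. DESeq2 gave 1459 and 1353, the compared groups alone 684 and 463, library size without composition factors 1038 and 388 (72.8% rises against 58.4%), the erythroid score 656 and 542, and the skeletal muscle score 643 and 402. A single library left out gave 472 to 1330 rises and 323 to 960 falls. Off drug against control gave 1545 and 1422; the erythroid score gave 159 and 237, the skeletal muscle score 551 and 521, and library size alone 1870 and 844 (68.9% rises against 52.1%), while a library left out gave 1003 to 1926 and 982 to 1627. Off drug against on drug gave 1341 and 1706, and the erythroid score 558 and 927. The replicate block gave 925 and 633, 1442 and 1349, and 1303 and 1744. Depth limits Cx3cr1 most, with 67 to 390 counts a library.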
